A study of Mus musculus with 8 samples.

Results

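The regions described here are stretches of open chromatin that were listed in mouse embryonic stem cells depleted of Ubc9 and in none of the other 3 cell populations of the study, and that lie between genes. They number 3963 of 94048 regions in all. Members were chosen by measured values: overlapping intervals of the 4 deposited lists (chromosomes 1 to 19 and X) were merged, and a merged region was kept when its score in the Ubc9-depleted list was at least 150, when no region of the other 3 lists overlapped it by 1 bp or more, and when it lay outside every RefSeq protein-coding gene and more than 1 kb from both ends of each. They are called new intergenic regions below, where "new" means listed in the depleted cells alone. Each one is exactly 1 region of the Ubc9-depleted list. The score is the authors' own value per region and ranks regions within a list only. How the 2 replicates were combined into a list is not stated, and the minimum of 150, the widths and the gaps below all depend on it.

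Ubc9 is the single enzyme that transfers SUMO, a small ubiquitin-like modifier, to its substrates. In embryonic stem cells SUMO modification is part of the machinery that keeps parts of the genome silent, and its best-known targets there are the KRAB zinc-finger, TRIM28 and SETDB1 system and the long terminal repeat (LTR) retrotransposons it represses. Such elements are scattered between genes in many near-identical copies, and a full-length copy carries the same terminal repeat at both ends. ATAC-seq uses a transposase that cuts accessible DNA and tags it for sequencing, so that a peak marks an open stretch such as a promoter or an enhancer.

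The study compared 4 groups of 2 replicates each. Ubc9-depleted cells were v6.5 embryonic stem cells whose Ubc9 is under TET-OFF control, taken after 72 hours of doxycycline, and Ubc9-control cells are of the same line. The H1 triple-knockout cells (H1.2-/-H1.3-/-H1.4-/-) lack linker histones that compact nucleosome arrays, and the H1 wild-type cells are their control; per the labels both come from lines described in an earlier publication. All groups had spent 4 passages in 2i/LIF medium, which holds stem cells in a ground state of pluripotency, and each reaction used 50000 cells and 12 PCR cycles. The labels name doxycycline for the depletion alone, so the drug and the loss of Ubc9 cannot be told apart. Per the series' design text both replicates of a group went into 1 list. No spread between replicates can be computed, no difference below has a test, and shares carry exact (Clopper-Pearson) 95% intervals that cover counting error only. How many reads lie behind each list is unknown. The lists hold 46847 to 58039 regions each, of which 18637 to 26426 on these chromosomes score 150 or more.

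Promoter windows of marker genes were compared with the lists as a check of the labelled cell type. Of 7 stem cell markers with a RefSeq promoter window, 5 were open in the depleted cells, Sox2, Nanog, Klf4, Tfcp2l1 and Zfp42, and the same 5 in the control cells. The H1 wild-type list held the same 5, and the H1 triple-knockout list these and Esrrb. None of 4 fibroblast feeder markers was open in the depleted or the control cells, but 1 of them, Col1a2, was open in both H1 lists. Of 5 markers of the 2-cell-like state, a rare state of stem cell cultures that resembles the 2-cell embryo, all 5 were open in the depleted cells (Zscan4c, Zscan4d, Zscan4f, Zfp352 and Usp17lc) and 0 in each of the other lists. A change in the share of such cells and a change within every cell cannot be told apart in these bulk lists, and the part of 2-cell-like cells in the results below was not tested. The Zscan4 genes among the markers belong to the same family and may not be separate observations.

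Sequence is shown first, for the few new intergenic regions that overlap an annotated promoter. Only 22 of the 3963 (0.555%, 0.348 to 0.839%) overlapped a RefSeq promoter window, which runs from 250 bases before to 50 bases after a gene's start, against 178 of 3033 (5.87%, 5.06 to 6.77%) strong intergenic regions present in all 4 lists. By the rule no window of a protein-coding gene could be among those overlapped. The 23 windows all belong to long non-coding RNA genes. Each window was aligned to all 32619 windows of the genome, and windows were called similar when at least 150 bases aligned. Similar windows were found for 14 of the 23, and for 9 of them the similar windows included that of another new intergenic region on a different chromosome. The sequences below, from RefSeq (GRCm38.p6), run 5′ to 3′ along the gene's strand, and capitals mark the bases aligned to the partner.

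The first set shows the new intergenic region with the widest promoter-bearing interval and a relative of it. Gm29709 (chr12:85407854-85408153, plus strand) lies in a region of 1958 bp with a score of 407.3, and Gm20110 (chr10:99608921-99609220, plus strand) in one of 943 bp with a score of 288.2. They share an aligned block of 193 bases with 87.6% identity.
Gm29709: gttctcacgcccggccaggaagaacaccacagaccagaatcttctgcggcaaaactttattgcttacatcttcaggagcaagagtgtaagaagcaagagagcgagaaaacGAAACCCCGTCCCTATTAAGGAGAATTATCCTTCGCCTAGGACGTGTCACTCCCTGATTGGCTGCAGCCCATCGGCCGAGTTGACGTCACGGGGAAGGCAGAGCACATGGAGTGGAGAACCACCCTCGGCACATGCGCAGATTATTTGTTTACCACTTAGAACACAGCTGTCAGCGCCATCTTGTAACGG
Gm20110: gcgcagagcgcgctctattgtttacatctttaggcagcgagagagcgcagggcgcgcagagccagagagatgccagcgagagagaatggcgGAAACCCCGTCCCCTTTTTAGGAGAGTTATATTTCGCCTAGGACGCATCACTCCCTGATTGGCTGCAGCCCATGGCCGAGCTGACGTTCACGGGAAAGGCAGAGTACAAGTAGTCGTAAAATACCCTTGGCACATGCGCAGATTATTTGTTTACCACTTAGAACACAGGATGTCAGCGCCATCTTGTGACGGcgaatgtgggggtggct

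A second set is shown because its members are the most alike. Gm52531 (chr2:150197602-150197901, minus strand, region score 459.0) and Gm33752 (chr4:7648860-7649159, minus strand, region score 202.4) aligned over 220 bases with 96.4% identity, in opposite orientation.
Gm52531: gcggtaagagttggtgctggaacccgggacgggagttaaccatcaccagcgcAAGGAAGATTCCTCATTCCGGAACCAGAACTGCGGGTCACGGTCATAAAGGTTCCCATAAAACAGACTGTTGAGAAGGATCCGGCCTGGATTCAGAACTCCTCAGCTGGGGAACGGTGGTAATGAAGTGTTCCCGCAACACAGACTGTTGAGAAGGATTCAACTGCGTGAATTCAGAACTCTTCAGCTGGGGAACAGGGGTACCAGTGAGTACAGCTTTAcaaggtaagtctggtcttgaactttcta
Gm33752: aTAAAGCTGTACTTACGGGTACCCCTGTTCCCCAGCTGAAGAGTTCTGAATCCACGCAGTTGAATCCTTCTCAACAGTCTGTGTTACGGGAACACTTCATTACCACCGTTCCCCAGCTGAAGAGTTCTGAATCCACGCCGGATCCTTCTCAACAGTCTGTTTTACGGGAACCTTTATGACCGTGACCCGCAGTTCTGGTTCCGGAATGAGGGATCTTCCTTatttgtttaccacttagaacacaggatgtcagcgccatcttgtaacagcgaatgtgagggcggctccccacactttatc

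The third set, Gm32296 (chr12:85537920-85538219, plus strand, region score 193.3) and Gm32681 (chr9:51046168-51046467, plus strand, region score 207.4), aligned over 246 bases with 88.2% identity.
Gm32296: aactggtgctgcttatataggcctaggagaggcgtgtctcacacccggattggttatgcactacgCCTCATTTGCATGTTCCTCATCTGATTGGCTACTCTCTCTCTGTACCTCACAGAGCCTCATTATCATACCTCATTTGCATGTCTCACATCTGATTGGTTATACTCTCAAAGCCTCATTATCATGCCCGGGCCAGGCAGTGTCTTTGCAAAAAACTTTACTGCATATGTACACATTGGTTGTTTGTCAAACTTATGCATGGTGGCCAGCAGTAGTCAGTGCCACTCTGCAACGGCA
Gm32681: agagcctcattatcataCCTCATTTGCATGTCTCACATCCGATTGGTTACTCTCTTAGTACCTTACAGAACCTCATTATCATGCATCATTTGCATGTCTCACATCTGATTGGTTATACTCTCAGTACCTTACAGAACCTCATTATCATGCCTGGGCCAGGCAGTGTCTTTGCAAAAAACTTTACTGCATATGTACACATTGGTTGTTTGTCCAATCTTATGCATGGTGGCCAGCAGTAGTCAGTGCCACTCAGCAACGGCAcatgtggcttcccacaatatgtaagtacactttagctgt

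Gm12724 (chr4:106236872-106237171, plus strand, region score 152.5) is shown because its window is like those of genes of the 2-cell embryo. Capitals mark the 297 bases aligned with 92.6% identity to the promoter window of Gm4340, a gene expressed at the 2-cell stage.
Gm12724: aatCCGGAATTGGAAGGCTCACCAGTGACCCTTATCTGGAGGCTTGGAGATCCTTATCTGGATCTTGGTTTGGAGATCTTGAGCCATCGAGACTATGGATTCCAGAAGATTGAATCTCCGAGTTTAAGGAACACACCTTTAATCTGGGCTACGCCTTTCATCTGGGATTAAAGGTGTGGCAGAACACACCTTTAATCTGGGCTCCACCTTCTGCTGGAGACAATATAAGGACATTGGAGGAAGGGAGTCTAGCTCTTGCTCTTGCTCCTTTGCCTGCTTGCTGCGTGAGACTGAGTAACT

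By contrast, the highest-scoring region with a promoter window, that of 4930512J16Rik (chr6:89285676-89285975, minus strand, region score 679.0), had no similar window, and is shown without capitals.
4930512J16Rik: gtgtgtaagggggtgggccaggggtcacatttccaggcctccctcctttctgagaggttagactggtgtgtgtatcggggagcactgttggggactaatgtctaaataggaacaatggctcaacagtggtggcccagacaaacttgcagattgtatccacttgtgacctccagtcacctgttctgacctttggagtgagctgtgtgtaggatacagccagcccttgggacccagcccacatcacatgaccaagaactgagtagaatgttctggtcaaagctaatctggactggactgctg

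Windows similar to those of the new intergenic regions were themselves mostly closed, but where open they were often open in the depleted cells alone. Leaving out the members' own windows, 144 windows of 140 genes were similar to at least 1 of them; 30 (20.8%, 14.5 to 28.4%) overlapped a region of the Ubc9-depleted list and of no other list, 1 overlapped the control list alone, and 96 overlapped none. Of all 32619 windows, 2.75% were open in the depleted list alone, and of the 11574 windows of long non-coding RNA genes 1.77%. Similar windows share sequence and are not independent observations. No minimum identity was set, so distant and near-identical windows are counted together. Reads from near-identical copies can be placed on the wrong copy, and the sources used here do not say how such reads were handled.

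The share differed widely with the sequence. Of 31 windows similar to that of Gm12724, 13 were open in the depleted list alone. Of the 16 with an identity of 90% or more, 12 were open in the depleted list alone and 0 in the control list; of the 15 below 90%, 1 was open in the depleted list alone. The 12 include the promoters of 6 neighbouring genes on chromosome 10, Gm4340, Gm20765, Gm21293, Gm21304, Gm21312 and Gm8764, which belong to a tandem array of near-identical copies, so that the 6 are best read as 1 observation. For Gm32296 and Gm32681, 7 of 15 similar windows were open in the depleted list alone. For Gm34548 (chr3:104680579-104680878, region score 159.2) the count was 8 of 21. For Gm29709, Gm20110 and Gm41479 it was 3 of 22, with 2 open in the control list also. For Gm39083, 1 of 50 similar windows was open in the depleted list alone (2.0%) and 0 in the control list alone, while 5 overlapped the depleted list and 6 the control list in all. For A630077J23Rik all 3 similar windows were open in the depleted and in the control list.

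Short motifs were counted on both strands in the 23 windows, in the 199 windows of strong intergenic regions in all 4 lists and in all windows. The last set includes windows of protein-coding genes, which the distance to genes keeps out of the other sets. CCAAT, the box bound by NF-Y, occurred in 16 of the 23 (69.6%), against 45.2% and 37.6%. ATGCAAAT, the octamer bound by POU factors, occurred in 3 (13.0%), those of Gm32296, Gm32681 and Gm34548, against 3.52% and 1.75%. AAGATGGCG, a YY1 motif, occurred in 3 (13.0%), those of Gm20110, Gm29709 and Gm33752, against 2.51% and 1.4%. TGACGTCA, the cAMP response element, occurred in 2 (8.7%), Gm29709 and Gm41479, against 1.51% and 1.8%. TATAAA occurred in 0 of the 23, against 10.6% and 13.7%, and CACGTG in 0, against 14.6% and 7.2%. Since related windows share their letters, these are descriptions of a few sequence families. The median GC content was 52.0%, with a range of 40 to 76.3%. The most GC-rich windows, those of 2310034G01Rik and Gm40716 (76.3% and 74.0% GC), had no similar window.

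One annotated microRNA lay in a new intergenic region. The hairpin of Mir344c (chr7:61837311-61837402, minus strand) lies within chr7:61837222-61837678, a region of 457 bp with a score of 170.7, 511 kb from Ndn in the imprinted Prader-Willi region. Its mature forms are given from RefSeq with the seed, bases 2 to 8, in capitals, because no other new intergenic region overlapped an annotated microRNA.
mmu-miR-344c-3p: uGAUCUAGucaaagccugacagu
mmu-miR-344c-5p: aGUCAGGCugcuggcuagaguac

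Ubc9-depleted cells held far more strong intergenic regions of their own than any other population. Of 8310 intergenic regions scoring at least 150 in the depleted list, 3963 (47.7%, 46.6 to 48.8%) were in no other list. The same count made from the control list gave 83 of 6585 (1.26%), from the H1 triple-knockout list 660 of 9474 (6.97%) and from the H1 wild-type list 445 of 8663 (5.14%). Inside genes or within 1 kb of them, 1218 of 11828 strong regions of the depleted list (10.3%) were in no other list. With the 18637 top-scoring regions taken from each list of the Ubc9 pair, 3573 intergenic regions were listed in depleted cells alone and 83 in control cells alone. Since 18637 is the number of control regions scoring 150 or more, the control count could not change. These shares follow from the rule that chose the regions and are given as a description.

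The intergenic share did not fall with the score as the genic share did. Between scores of 50 and 75, 59.1% of intergenic and 44.1% of genic regions of the depleted list were in no other list. Between 150 and 200 the values were 47.3% and 18.7%. Between 300 and 500 they were 55.0% (52.6 to 57.3%) and 7.51% (6.64 to 8.46%), and at 500 or more 31.3% and 1.53%. The intergenic curve thus had a second high point at scores of 300 to 500, where 985 of 1792 regions were new.

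**Figure D1:**
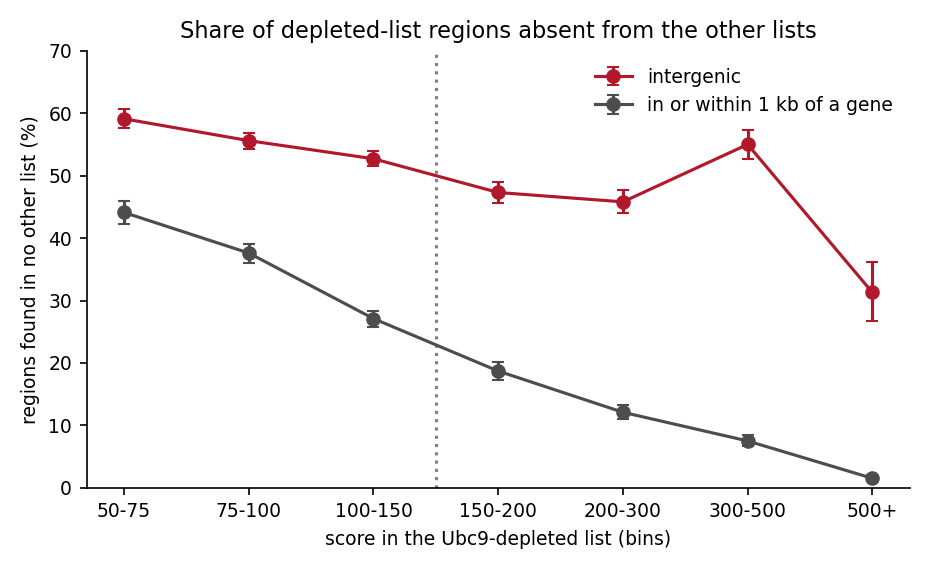
Percent of regions of the Ubc9-depleted list found in no other list (vertical axis) by score bin (horizontal axis), for intergenic regions and for regions in or within 1 kb of a protein-coding gene; bars are exact 95% binomial intervals and the dotted line marks the minimum score of 150. Intergenic regions rise again to 55.0% at scores of 300 to 500 while genic regions fall to 7.51%.

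Scores of the new intergenic regions ran from 150 to 893.2 with a median of 224.7, and those of strong intergenic regions present in all 4 lists from 150.1 to 3100 with a median of 227.7. The 3 regions just inside the minimum had scores of 150, 150.04 and 150.065 and lie nearest Rbm24, Satb1 and Ly96. The 3 just outside had 149.97, 149.955 and 149.92 and lie nearest Pde3b, Abca1 and Zeb2. Below the minimum, 9134 further intergenic regions were listed in depleted cells alone.

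By the rule no region of another list overlaps a member. The median distance to the nearest region of the control list was 29.0 kb, to the H1 triple-knockout list 26.6 kb and to the H1 wild-type list 26.7 kb. Within 1000 bp, 39 members (0.984%) had a control region, 54 an H1 triple-knockout region and 45 an H1 wild-type region. The new regions lay farther from genes than constant regions. Their median distance to the nearest protein-coding gene was 70.2 kb (95% interval of the median 64.0 to 75.3 kb), against 34.4 kb for regions in all 4 lists, and 43.6% (42.1 to 45.2%) against 29.6% (28.0 to 31.3%) lay more than 100 kb away. At a minimum score of 300 the 2 medians were 95.6 and 35.6 kb. Strong intergenic regions of the H1 wild-type list alone had a median of 74.7 kb, so such a distance is not particular to the depleted list. Those of the H1 triple-knockout list alone had 41.3 kb and those of the control list alone 34.8 kb. The weaker new intergenic regions had 54.4 kb.

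The highest-scoring new intergenic regions lay nearest genes of varied roles. The first, chr11:22506672-22507692 (score 893.2), lies 4.59 kb from Tmem17, a protein of the ciliary transition zone, and overlaps the long non-coding RNA gene Gm46274. The second, chr2:46281754-46282362 (885.2), lies 1160 kb from Zeb2, a zinc-finger repressor of neural crest and epithelial-mesenchymal transition, in a stretch without protein-coding genes. The third, chr6:17681420-17682214 (797.9), lies 11.7 kb from St7. Between 613.6 and 682.8 followed regions nearest Nyap2, a neuronal signalling adaptor, Plxna1, a semaphorin receptor, Klf7, a transcription factor of neurons, and the ribosomal protein gene Rpl14. The same range held regions nearest Cdh19, a cadherin, Sox6, a transcription factor of cartilage and muscle, and Dock2, an activator of Rac in leukocytes. Regions nearest Dcbld2, Vstm2a, the adrenergic receptor gene Adra2a, Cdh8, the sialyltransferase gene St8sia4, the glypican gene Gpc5, Jrkl, the collagen-modifying enzyme gene Plod2, Parp8 and Cobl completed the 20. Of these 20 regions, on 11 chromosomes, 16 were 700 to 1200 bp wide and 9 lay more than 100 kb from a gene.

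The widths of the new intergenic regions had 3 high points. Most numerous were regions of 400 to 600 bp (the upper end of each range is left out), 1435 of them (36.2%), with a median score of 200.9. A second class of 800 to 1000 bp held 682 (17.2%), with a median score of 351.6, and 65.2% of them scored 300 or more. The third, of 1700 to 2200 bp, held 351 (8.86%), with a median score of 247.1, and was separated from the others by a gap: 41 regions were 1200 to 1500 bp wide and 40 were 1500 to 1700 bp. Among the 3033 strong intergenic regions in all 4 lists, measured by their interval in the depleted list, 8.14% were 800 to 1000 bp and 0.791% (24 regions) 1700 to 2200 bp wide. Of all 380 strong intergenic regions of the depleted list 1700 to 2200 bp wide, 351 (92.4%, 89.2 to 94.8%) were in no other list. For widths of 1200 to 1500 bp it was 41 of 172 (23.8%). The 1218 strong new regions in or near genes had high points at similar widths, the second one slight. In bins of 100 bp named by their lower end, they numbered 220 at 400 bp, 106 at 700 bp and 112 at 800 bp. They numbered 0 at 1500 bp, 32 at 1700 bp and 26 at 1800 bp. The wide class is thus not particular to intergenic regions.

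**Figure D2:**
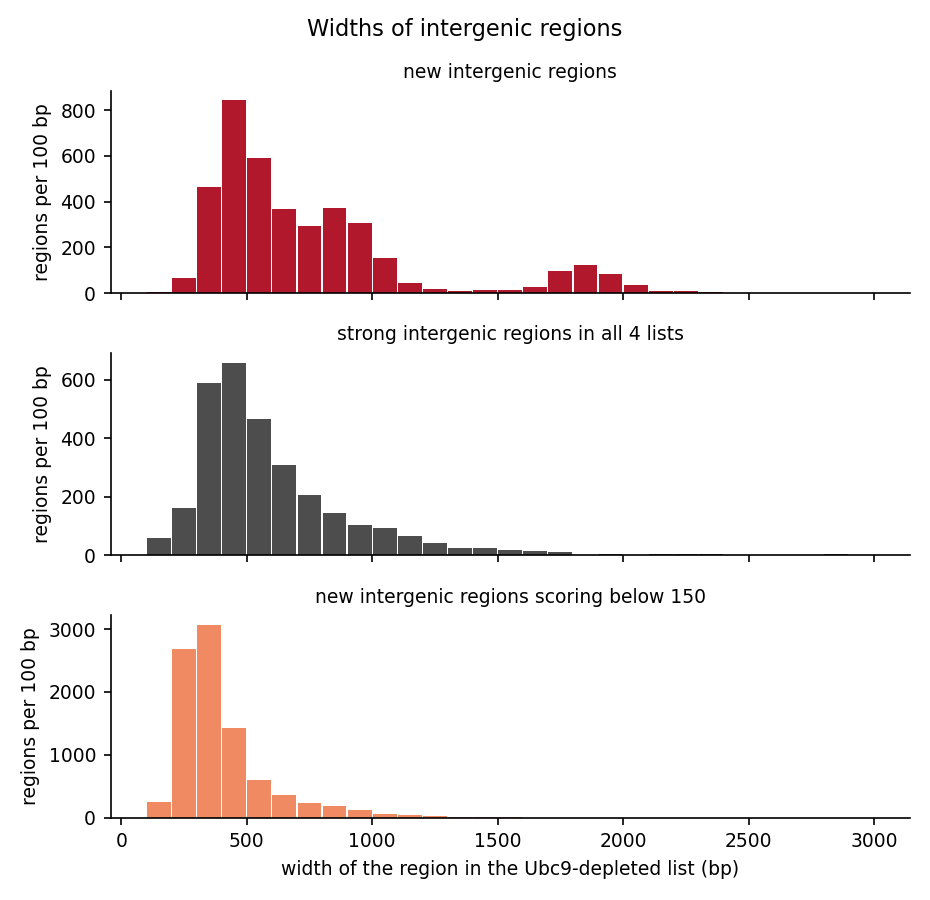
Number of regions per 100 bp of width (vertical axes, each panel with its own scale) against the width of the region in the Ubc9-depleted list (horizontal axis), for new intergenic regions, strong intergenic regions in all 4 lists and new intergenic regions scoring below 150. The new intergenic regions show 3 high points, including 351 regions at 1700 to 2200 bp, where the 4-list regions number 24.

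New intergenic regions less than 10 kb apart were often separated by nearly the same distance. The 3943 gaps between neighbours had a median of 324 kb, and 435 of them were below 10 kb. Of these 435, 184 (42.3%, 37.6 to 47.1%) were 4500 to 5000 bp long, a range chosen after seeing the data. This compares with 49 at 4000 to 4500 bp and 19 at 5000 to 5500 bp, and 63 fell between 4800 and 4900 bp. For strong intergenic regions in all 4 lists the count was 23 of 149 (15.4%, 10.0 to 22.3%). Strong new regions in or near genes showed the same spacing, 38 of 98 gaps (38.8%). Counted over whole lists at scores of 150 or more, such gaps made up 341 of 2144 in depleted cells (15.9%), 106 of 1909 in control cells (5.55%), 211 of 4614 in H1 triple-knockout cells (4.57%) and 164 of 3692 in H1 wild-type cells (4.44%). The weaker new intergenic regions had another spacing: 193 of their gaps were 5.4 to 5.7 kb long, against 5 among the new intergenic regions, with median widths of 418 and 361 bp for the wider and narrower region.

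**Figure D3:**
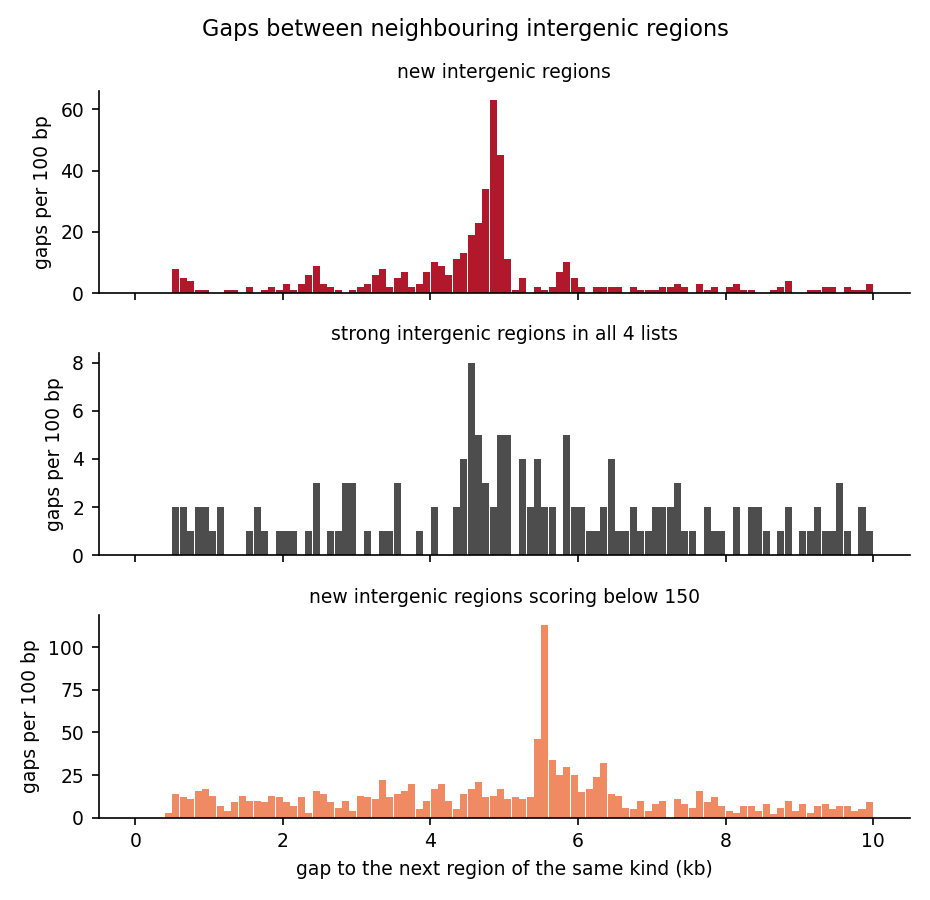
Number of gaps per 100 bp (vertical axes, each panel with its own scale) by length of the gap to the next region of the same kind in kb (horizontal axis), for new intergenic regions, strong intergenic regions in all 4 lists and new intergenic regions scoring below 150. New intergenic regions pile up just below 5 kb, with 63 gaps at 4800 to 4900 bp, and the weaker ones at 5.5 kb.

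Most of the 184 pairs had 1 of 2 sizes, and the other 5 and 13 pairs had both regions below 700 bp or other widths. In 70 pairs a region of at least 1500 bp (median 1846 bp) stood with one below 700 bp (median 439 bp), and the outer span had a median of 7168 bp. In 96 pairs both regions were below 1500 bp and at least 1 reached 700 bp, with median widths of 905.5 and 456 bp and a median span of 6187 bp. Outer spans of 6000 to 6400 bp were found in 90 pairs and spans of 7000 to 7400 bp in 75, while 5 had a span of 6400 to 7000 bp. The wider region had the higher score in 61 of the 70 pairs of the first form (medians 262.7 and 175.4) and in 90 of the 96 of the second (417.6 and 180.8). It was on the left in 28 and on the right in 42 pairs of the first form, and in 52 and 44 of the second. Over all new intergenic regions, median scores were likewise lower at 400 to 600 bp (200.9) than at 800 to 1000 bp (351.6) or 1700 to 2200 bp (247.1). The order of scores is thus not particular to pairs. In all, 366 new intergenic regions (9.24%) belonged to such a pair, spread over 19 chromosomes.

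**Figure D4:**
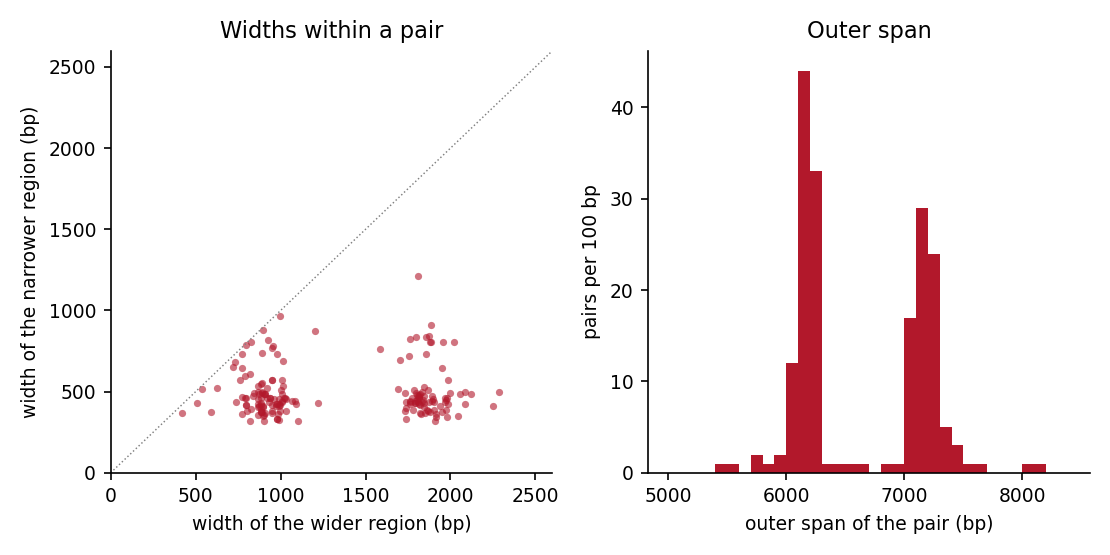
Left, width of the narrower against width of the wider region in bp for each of the 184 pairs of new intergenic regions 4500 to 5000 bp apart, with a dotted line at equal width; right, number of pairs per 100 bp of outer span. The points form 2 clouds that differ in the wider region, and the spans form 2 peaks, of 90 pairs at 6000 to 6400 bp and 75 at 7000 to 7400 bp.

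Examples of the first form lie nearest Gm10488 (chrX:29673020-29680153, widths 482 and 1805 bp, scores 247.8 and 554.9), nearest Epha7, an ephrin receptor gene (chr4:30228604-30235995, widths 487 and 2058 bp, scores 285.3 and 315.7), and nearest Tafa5 (chr15:87293917-87301064, widths 1949 and 648 bp, scores 333.1 and 257.0). Examples of the second lie nearest Ralyl (chr3:14234599-14241150, widths 772 and 948 bp), Dcbld2 (chr16:58335821-58342012, widths 463 and 793 bp, scores 162.9 and 653.1) and Pramel22, of a family expressed in germ cells and early embryos (chr4:143645833-143651991, widths 935 and 460 bp, scores 578.9 and 215.4). They were taken as the 3 pairs of each form with the highest summed score.

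Partners at this distance were also counted among regions of the depleted list that are not themselves new intergenic regions, such as weaker ones and those in genes. Of the 351 members 1700 to 2200 bp wide, 70 (19.9%, 15.9 to 24.5%) had such a region 4500 to 5000 bp away, and of the 879 that were 800 to 1200 bp wide 162 (18.4%, 15.9 to 21.2%) did. For members below 600 bp it was 41 of 1973 (2.08%, 1.5 to 2.81%). Among strong intergenic regions in all 4 lists it was 136 of 3033 (4.48%, 3.78 to 5.28%). These counts leave out partners that are new intergenic regions. With any region of the depleted list as partner, the shares were 41.9% for members 1700 to 2200 bp wide and 28.8% for those of 800 to 1200 bp. They were 9.88% (8.6 to 11.3%) for members below 600 bp and 4.75% (4.02 to 5.57%) for regions in all 4 lists. Whether these regions lie in repeats was not tested, since no repeat annotation was used here.

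Chained at gaps of up to 50 kb, new intergenic regions formed 3181 groups, of which 2537 held 1 region, 524 held 2 and 120 held 3 or more. The single ones were 64.0% of the 3963, and among strong intergenic regions in all 4 lists 2253 of 3033 (74.3%) stood alone. The 2 shares are not matched for density, since median gaps between neighbours were 324 and 478 kb. Density ranged from 1.25 per Mb on chromosome 19 to 1.83 per Mb on chromosome 4, with a median of 1.52 over chromosomes. The share of strong intergenic regions that were new ranged from 39.2% (34.2 to 44.3%) on chromosome 11 to 56.6% (51.6 to 61.4%) on X. Within 3 Mb of the first position of a chromosome covered by any list, the centromere side, lay 3.94% (3.35 to 4.59%) of the new regions and 3.43% (2.81 to 4.14%) of those in all 4 lists, so the intervals overlap.

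The largest groups held 5 regions. One spans chr5:151456230-151531781 between Stard13 and the vomeronasal receptor gene Vmn2r18, over the pseudogenes Vmn2r-ps25 and Vmn2r-ps26, with scores from 155.5 to 519.9. The other spans chr18:19370927-19434949 between Cdh2 and the desmosomal cadherin gene Dsc3, with scores from 194.4 to 394.4. Groups of 4 lay between Mybpc1 and Spic, a macrophage transcription factor gene (chr10:88625278-88658135), among the olfactory receptor genes Olfr782, Olfr784 and Olfr786 (chr10:129361814-129442576, up to 589.7) and next to Mup9, a major urinary protein gene (chr4:60377647-60414319, up to 471.1). The rest of the 10 largest groups, ranked by number of regions and then by summed score, lay beside Kcnj2, Grik2, Gm382, Bpnt2 and Brinp3. Within the spans of 7 of the 10 no region of the control list lay between the members either, and the 3 others held 1 each. Only 5 of the 10 spans held no region of any other list, H1 lists included. How often other spans of such length hold no control region was not counted.

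Annotated long non-coding and transfer RNA genes were touched by a smaller share of new intergenic regions than of regions in all 4 lists, while for pseudogenes the intervals overlap. Of the new intergenic regions 441 (11.1%, 10.2 to 12.1%) overlapped one, against 24.6% (23 to 26.1%) of those in all 4 lists. For long non-coding RNA genes the shares were 7.47% and 18.8%, for transfer RNA genes 0.0252% (1 region) and 1.52% (46 regions), and for pseudogenes 3.05% (2.54 to 3.64%) and 3.43% (2.81 to 4.14%). After the regions at Gm46274, 4930512J16Rik and Gm35880, the highest-scoring overlapped the pseudogenes Gm52773 (score 600.1, nearest Hgf) and Gm51978 (578.1), the Igh locus (564.0), 1700019L22Rik (561.5, nearest Tenm3), Rpl31-ps25 (557.2), Scpep1os (537.6) and Vmn2r-ps25 (519.9). The antigen receptor loci, which are rearranged and used in lymphocytes, held 28 new intergenic regions (0.707%, 0.47 to 1.02%) and 14 of those in all 4 lists (0.462%, 0.253 to 0.773%), with overlapping intervals. Igk held 10 and 7, Igh 8 and 4, and Tcra 7 and 3. The highest-scoring Igh region was 2556 bp wide (chr12:113274593-113277148).

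The genes nearest to the new intergenic regions were compared with 15 gene lists. In all, 606 regions (15.3%) had their nearest protein-coding gene in a list, against 407 (13.4%) of those in all 4 lists. The 2 sets are not matched for distance to genes (medians 70.2 and 34.4 kb), and the part of this distance in the shares was not tested. Genes of the 2-cell stage were nearest to 37 (0.934%, 0.658 to 1.28%), against 9 (0.297%, 0.136 to 0.563%), and the 37 lay near 20 genes. All 5 markers of the 2-cell-like state with a promoter window were open in the depleted list alone, and their part in this count was not tested. Examples are chr7:15596817-15597587 (score 455.7) and chr7:15704190-15705123 (419.1), near the homeobox genes Obox3 and Obox5, and chr7:10910250-10911115 (373.8), 5.2 kb from Zscan4b, a gene of the 2-cell-like state. The highest-scoring of them, chr10:104576829-104577617 (458.5), lies 380 kb from Gm4340. Genes of the pluripotency list showed the opposite order, 7 regions (0.177%, 0.071 to 0.364%) against 24 (0.791%, 0.508 to 1.18%). The strongest of the 7, chr3:34851741-34852634 (328.8), lies 199 kb from Sox2, a core pluripotency factor, and another, chr17:35496259-35496877 (172.8), 9.15 kb from Pou5f1. The other pluripotency genes named by score are Tcl1 (253.2) and Klf5 (175.9).

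Cadherins and protocadherins, adhesion proteins of which many act in neurons, were nearest to 113 regions (2.85%, 2.36 to 3.42%) against 48 (1.58%, 1.17 to 2.09%), and these lay near 23 genes. Examples beside Cdh19 and Cdh8 are Pcdh11x (score 606.3, 645 kb away) and Pcdh7 (544.9, 992 kb). Vomeronasal receptors, which detect pheromones, were nearest to 82 (2.07%, 1.65 to 2.56%) against 37 (1.22%, 0.86 to 1.68%), with Vmn1r137 (562.1), Vmn2r23 (559.2), Vmn1r193 (502.6) and Vmn1r130 (492.2) the highest. Olfactory receptors were nearest to 93 (2.35%, 1.9 to 2.87%) against 55 (1.81%, 1.37 to 2.35%), among them Olfr784 (589.7), Olfr1257 (549.4), Olfr1155 (494.9) and Olfr1287 (476.5). Axon guidance and synapse adhesion genes were nearest to 124 (3.13%) against 84 (2.77%), with Slit2 (583.3), Unc5d (572.6) and Tenm3 (561.5) the highest, 798 to 1080 kb from their genes. Between the sets the intervals overlap for the vomeronasal, olfactory and axon guidance lists.

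KRAB and other Zfp genes, which include repressors of retrotransposons, were nearest to 69 (1.74%, 1.36 to 2.2%) against 84 (2.77%, 2.21 to 3.42%). The highest-scoring regions lay 20.3 kb from Zfp318 (474.4), 167 kb from Zfp516 (470.5), 15.2 kb from Zfp24 (469.9) and 183 kb from Zfp980 (426.3). Lineage transcription factors were nearest to 57 (1.44%) against 47 (1.55%). Sox6 (655.6), the T-box gene Tbx18 (493.4) and Pou3f4 (458.7) led that list. Imprinted genes were nearest to 16 (0.404%, 0.231 to 0.655%) against 10 (0.33%, 0.158 to 0.606%), led by Rtl1 (486.1), Snrpn (422.6), Slc38a4 (348.8) and Ndn (334.3). Primitive endoderm genes were nearest to 7 (0.177%, 0.071 to 0.364%) against 3 (0.0989%, 0.0204 to 0.289%), led by Sox17 (360.5) and Gata6 (235.0, a region of 1927 bp), then Pdgfra (227.3) and Dab2 (206.8). Trophectoderm genes were nearest to 4 (0.101%) against 8 (0.264%), Gata3 (350.8), Id2 (194.1) and Peg10 (192.7) among them. Pramel genes were nearest to 3 (0.0757%; Pramel22, 578.9, and Pramel14, 184.9) against 2 (0.0659%). Germline genes were nearest to 3 (0.0757%, 0.0156 to 0.221%; Stk31, Piwil1 and Tex101, 226.9 to 241.7) against 0 (upper limit 0.122%). A Hox gene (Hoxb13, 152.2) was nearest to 1 (0.0252%) against 2 (0.0659%), and an interferon gene (Ifna9, 187.8) to 1 (0.0252%, 0.000639 to 0.141%) against 5 (0.165%, 0.0535 to 0.384%). For all the lists of this paragraph from lineage factors on, the intervals of the 2 sets overlap. Several regions near 1 gene share their surroundings, so the intervals treat as separate what may not be.

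**Figure D5:**
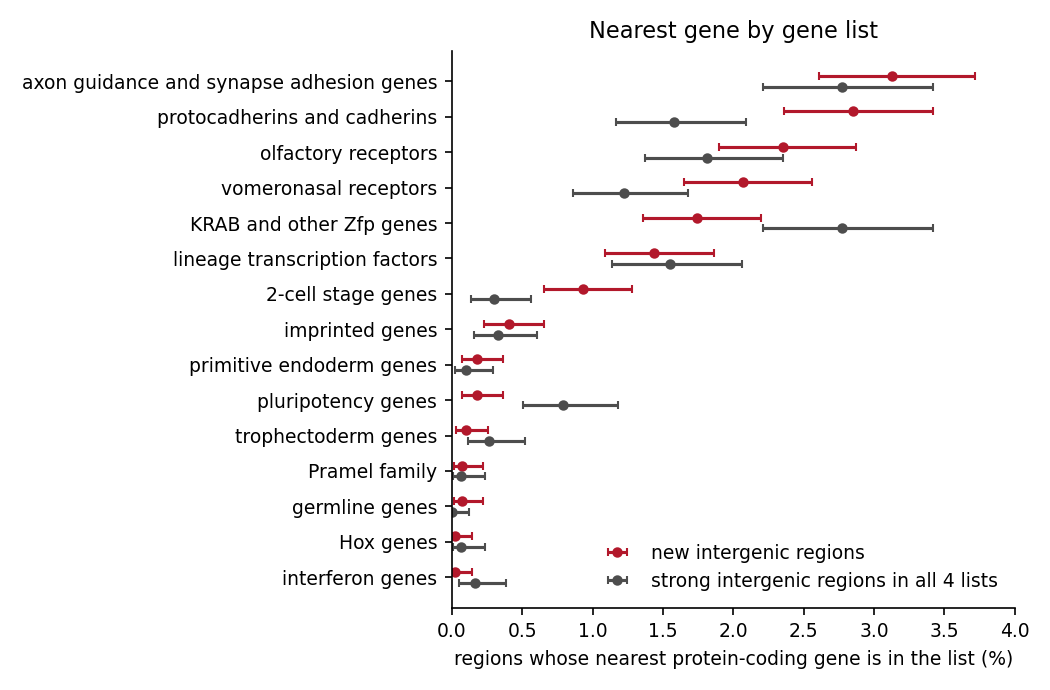
Percent of regions whose nearest protein-coding gene belongs to a gene list (horizontal axis) for each of 15 lists (vertical axis), for the 3963 new intergenic regions and the 3033 strong intergenic regions in all 4 lists; bars are exact 95% binomial intervals. The intervals are apart, with new regions higher, for cadherins and 2-cell stage genes, and with new regions lower for KRAB and other Zfp genes and pluripotency genes. The sets are not matched for distance to genes.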

How the data were processed

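Per the submitters' processing notes, the build was mm10 and the tools were MACS 1.4.2-1, Picard, Bowtie2 and CASAVA 1.8.2; settings, read shifting and the treatment of multiply mapped reads are not given in the sources used here. The authors deposited 1 list per group, made from both replicates, with a score per region and no depth. Genes and sequences are from RefSeq (GRCm38.p6, which has the coordinates of mm10). Lists were merged at an overlap of 1 bp. Promoter windows were aligned with BLAST 2.17.0 (e-value of 1e-10 at most, at least 150 aligned bases). Intervals were computed with scipy 1.17.1. Shared regions take the width of their highest-scoring interval in the depleted list, since intervals of the H1 lists are narrower. Named genes are the nearest to the 20 highest-scoring regions, those at the 10 largest groups, up to 4 per gene list, the non-coding genes at the 10 highest-scoring regions that touch one, 3 on each side of the minimum score and the markers; genes named from promoter windows, pairs, receptor loci and Mir344c were chosen after their values were seen. Some genes that this rule names are not reported here. The members and gene lists were chosen with earlier results of these data known. The merging, distance and chaining steps were tested on simulated data.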

Additional observations from a re-analysis of the deposited data

Results flagged for a closer look

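Chromosome Y and the unplaced and unlocalized sequences were outside the regions compared above. On chromosome Y, 70 regions (Poisson 95% interval 54.6 to 88.4, counting error only) with a score of 150 or more were in the depleted list and in no other, of 133 such regions there (52.6%, 43.8 to 61.3%). The same count was 0 of 35 for the control list, 0 of 31 for the H1 triple-knockout list and 2 of 58 for the H1 wild-type list. On the unplaced and unlocalized sequences it was 15 (8.4 to 24.7) of 32 (46.9%, 29.1 to 65.3%) for the depleted list, 0 of 21 for the control list, 1 of 29 for H1 triple knockout and 1 of 27 for H1 wild type. Both are listed here because they lie outside the main measurement and exceed the control count. These counts take all regions, whatever their distance to genes. On the other chromosomes the share was 47.7% for strong intergenic regions and 10.3% for strong regions in or within 1 kb of genes, so neither is a like comparison.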

How the results depend on the processing

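No paired analysis was possible because each group has 1 list made from both replicates, and for the same reason no replicate could be left out. At minimum scores of 50, 100, 200 and 300 there were 13097, 7508, 2436 and 1107 new intergenic regions, their median width was 400, 484, 753 and 844 bp, and gaps of 4500 to 5000 bp, an alternative chosen after seeing the data, made up 18.4%, 30.6%, 36.6% and 50.0% of those below 10 kb. The median gene distance was 59.0, 63.9 and 95.6 kb at 50, 100 and 300. The share in no other list was 52.8%, 49.9% and 50.7% at 50, 100 and 300, and 48.8% and 50.0% with margins to genes of 5 and 10 kb. Groups of 3 or more numbered 466, 29 and 1 at 100, 200 and 300, and 51 and 233 when chained within 20 and 100 kb. Within 1 and 5 Mb of the chromosome start lay 1.56% and 6.64%. With non-coding genes extended by 1 kb, 12.9% touched one. A listed gene was nearest and within 50 kb for 6.79%, and any listed gene lay within 100 kb for 11.1%. Another 15 values stayed within their interval or within 1.5 times the count, among them the count with presence allowed within 1000 bp (3884), with absence from the control list alone (4560) and the similar promoter windows at 100 and 200 aligned bases (15.4% and 22.7%, chosen after seeing the data). The control-only count with equal numbers of regions (83) is also among the 15 and could not change. The depth behind the lists is unknown, so absence from a list may mean too few reads.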
